A study of Homo sapiens with 6 samples.

Results

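The genes described here are 7 small membrane proteins that each cross the cell membrane in a bundle of helices: EMP1, EMP2, EMP3 and PMP22 of the PMP22 family, and TM4SF1, TM4SF4 and TM4SF18 of the TM4SF family, also called the L6 family. They were chosen by name from 26336 named genes of a study of TEAD4 in colorectal cancer cells, with the knockdown values of these same libraries already known. The knockdown values below are therefore a description and carry no test. The tests given are of the difference between the cell lines, a contrast the choice did not use, though it is averaged over the same libraries. Libraries came from HCT116 and SW620, both human colorectal cancer lines, SW620 having been derived from a lymph node metastasis. Each line had 2 TEAD4 knockdown libraries, made from cells carrying a short hairpin against TEAD4, and 1 control library from cells carrying the pLKO vector. The labels name no other treatment, and all cells grew in DMEM with serum. In each line the labels letter the knockdown libraries A and B. They do not say which hairpins were used, whether A and B are different hairpins, or what the pLKO vector held. Nor do they say whether libraries of a group came from separate cultures. The spread between libraries of a group may therefore be technical, or may include a difference between hairpins.

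TEAD4 is a DNA-binding transcription factor that works with the coactivators YAP and TAZ, the end points of the Hippo pathway, which couples cell shape and contact to growth. Proteins of the PMP22 family sit at the surface of epithelial, myelinating and other cells, where they act in adhesion and in the sorting of integrins and lipid domains. Proteins of the TM4SF family resemble the tetraspanins in shape without being related to them in sequence, and TM4SF1 is a surface antigen of many carcinomas and of endothelium. EMP1 is known in the intestine as a surface protein of the colorectal cancer cells that seed recurrent disease.

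Promoters are shown for the 3 genes with a match to either motif searched, among them TM4SF18 and EMP1, which had the largest log2 fold changes on knockdown of the set in HCT116 and in SW620. The motif searched for TEAD was GGAATG, and that for AP-1, a partner of TEAD at many enhancers, was TGANTCA, both on either strand. Each sequence is the 250 bases before the RefSeq start of the gene on GRCh38.p14, read 5′ to 3′ on the strand of the gene, with motif matches in capitals. TM4SF1 (chr3:149377650-149377899, minus strand) held 2 TEAD matches, whose first bases lie 122 and 13 bases before the start.
TM4SF1: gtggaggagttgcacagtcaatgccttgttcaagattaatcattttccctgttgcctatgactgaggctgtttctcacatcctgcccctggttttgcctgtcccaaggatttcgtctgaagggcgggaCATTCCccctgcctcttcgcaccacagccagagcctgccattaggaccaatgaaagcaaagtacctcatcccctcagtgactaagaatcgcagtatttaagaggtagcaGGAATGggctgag
TM4SF18 (chr3:149333637-149333886, minus strand) held 1 TEAD match, 46 bases before the start.
TM4SF18: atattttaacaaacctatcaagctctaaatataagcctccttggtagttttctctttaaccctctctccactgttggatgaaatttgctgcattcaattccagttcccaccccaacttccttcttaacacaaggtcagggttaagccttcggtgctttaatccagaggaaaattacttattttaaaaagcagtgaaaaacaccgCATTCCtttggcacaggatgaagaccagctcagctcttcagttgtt
EMP1 (chr12:13196476-13196725, plus strand) held no TEAD match and 2 AP-1 matches, 175 and 48 bases before the start.
EMP1: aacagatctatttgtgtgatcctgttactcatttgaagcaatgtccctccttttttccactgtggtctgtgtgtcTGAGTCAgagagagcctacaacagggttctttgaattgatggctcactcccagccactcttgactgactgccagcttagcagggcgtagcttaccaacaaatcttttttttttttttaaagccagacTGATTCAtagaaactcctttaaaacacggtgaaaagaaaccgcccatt
EMP2, EMP3, PMP22 and TM4SF4 held neither motif in the promoters listed for them. Of 35116 RefSeq promoters of the same length, 11.9% held at least 1 TEAD match and 0.94% at least 2, while 6.57% held at least 1 AP-1 match and 0.402% at least 2. The matches describe letters in these windows, and no binding was measured.

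TEAD4 itself was lower in every knockdown library. It had 68.2 and 68.6 normalized counts in HCT116 knockdown libraries, against 355 in the HCT116 control, and 268 and 234 in SW620 knockdown libraries, against 1140.4 in the SW620 control. A normalized count is the reads of a gene divided by the size factor of its library, as the authors deposited it, and values in this unit are compared only within a line. Reads on named genes numbered from 15778571 to 18859715 per library. Markers of colon epithelium summed to between 108824 and 158311 normalized counts in HCT116 libraries and between 108332 and 157227 in SW620 libraries. KRT8, a keratin of simple epithelia, was the highest of them in every library, with 56988.5 of 108824 in HCT116 knockdown library 1. VIL1 had 0 reads in HCT116 knockdown library 2. Leukocyte markers summed to between 19.1 and 46.8 in HCT116 libraries and between 72.2 and 155 in SW620 libraries. Fibroblast markers summed to between 462 and 992 in HCT116 libraries, with COL1A1 the highest. In SW620 libraries they summed to between 664 and 1070.1, with LUM the highest. Of 18743 genes that averaged 1 normalized count or more, limma called 0 genes (0%) on knockdown at an adjusted p under 0.05 in HCT116, in SW620 or over both lines. At an unadjusted p under 0.05 there were 1036, 272 and 831 genes, while edgeR called 0 in each and DESeq2 called 17, 7 and 14. All 7 genes described here passed the filter.

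EMP1 (GRCh38 chr12:13196716-13219939, plus strand) stood above its control on knockdown in HCT116 and far below it in SW620. In HCT116 it had 3194 and 3308 normalized counts in the knockdown libraries, against 2001 in the control. In SW620 it had 144 and 39.0 normalized counts in the knockdown libraries, against 650.3 in the control. Both knockdown libraries thus stood above the control in HCT116 and below it in SW620. The HCT116 knockdown libraries were 1.596-fold and 1.65-fold of the control, a log2 fold change of 0.70 ± 0.77 (SE from limma, for 2 libraries against 1). The scale log2(normalized count + 1) was used for every knockdown fold change here. The SW620 knockdown libraries held 22.2% and 5.99% of the control level, a log2 fold change of -3.10 ± 0.77. Each SE pools the spread of the libraries of both lines, so a gene has the same SE in HCT116 and SW620. The EMP1 knockdown pairs differed in spread, with a log2 SD of 0.036 in HCT116 and 1.32 in SW620. Since cells were measured in bulk, fewer cells with the transcript and less transcript per cell cannot be told apart.

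Counting error was small beside these differences, but the SW620 knockdown libraries also differed from each other. The SW620 values rested on 146 and 38 reads in the knockdown libraries, against 666 in the control. Knockdown over control was 0.222 in library 1 (exact 95% interval 0.184 to 0.266) and 0.0599 in library 2 (0.0420 to 0.0831), intervals that cover counting error only. Library 1 held 3.70-fold the EMP1 level of library 2, and only 1.97% of 14211 SW620 genes averaging 10 normalized counts or more had as large a log2 gap between the knockdown libraries, the median gap being 0.24. TEAD4 did not differ as much between these libraries, with library 1 at 1.15-fold of library 2. By log2 fold change EMP1 ranked 4 from the lowest of these 14211 genes, whereas in HCT116 11.3% of 14218 genes stood as high as EMP1 or higher. In the authors' deposited table, whose fold changes are shrunken towards 0, EMP1 had a log2 fold change of -0.998 in SW620 and 0.51 in HCT116. The adjusted p in the authors' deposited table was 0.00648 in SW620, where that table puts 3 genes under 0.05, and 0.9999 in HCT116. It belongs to the contrast on which the gene was chosen, so nothing is read from it.

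**Figure D1:**
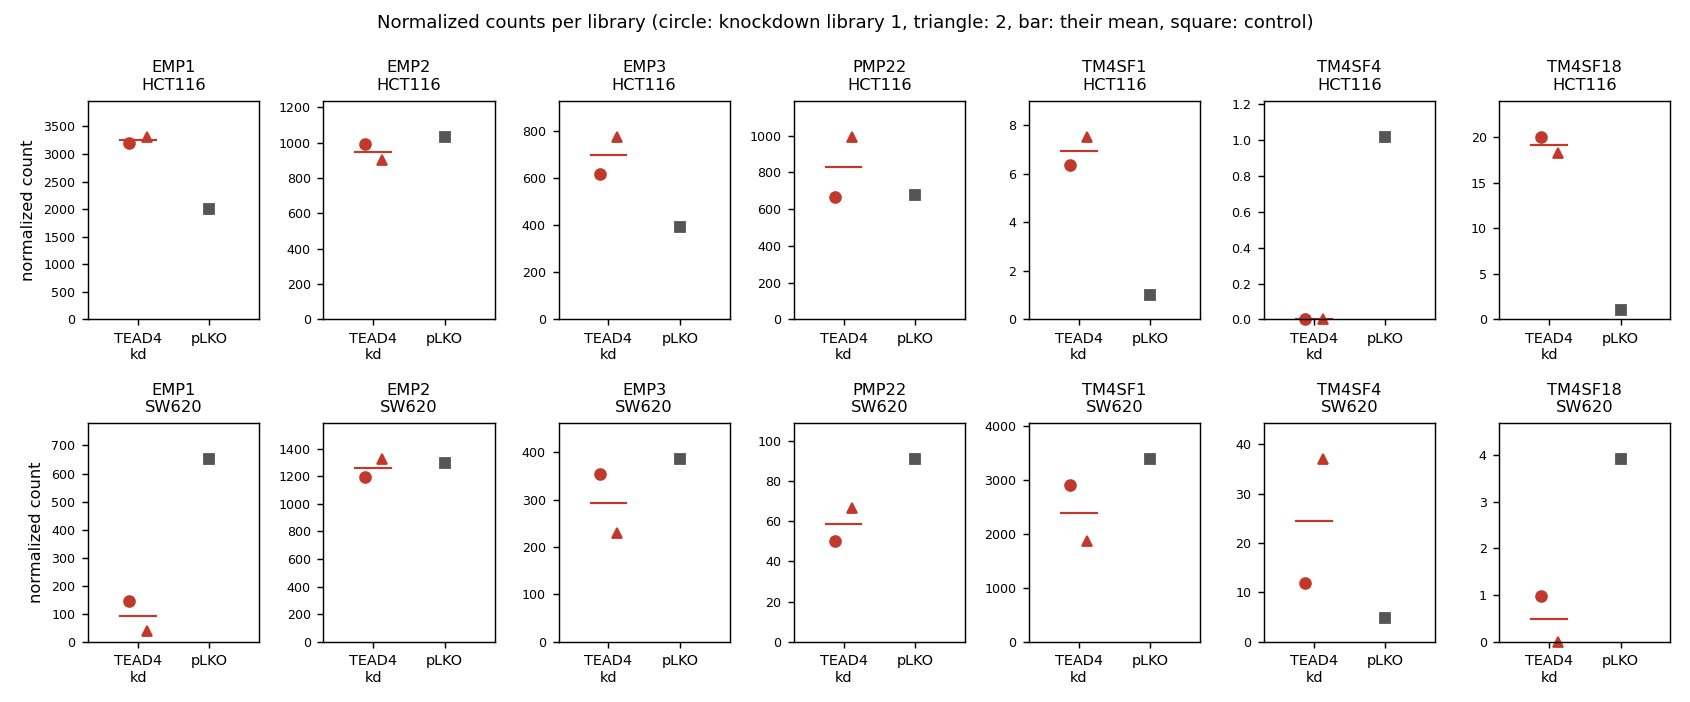
Normalized counts (vertical axis, linear, its own range in each panel) of each gene in HCT116 (upper row) and SW620 (lower row), for TEAD4 knockdown library 1 (circle), knockdown library 2 (triangle), their mean (bar) and the pLKO control (square). EMP1 stands at 3194 and 3308 above a control of 2001 in HCT116, and at 144 and 39.0 below a control of 650.3 in SW620.

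EMP3 (chr19:48321509-48330553, plus strand), a family member studied in glioma and the carrier of the MAM blood group antigen, had the same directions as EMP1, with a smaller difference in SW620. HCT116 knockdown libraries had 619.7 and 776 normalized counts of EMP3, against 393 in the control. SW620 knockdown libraries had 355 and 229.7 normalized counts, against 385 in the control. Knockdown levels were thus above the control in both HCT116 libraries and below it in both SW620 libraries, though in SW620 library 1 the ratio of 0.922 had a counting interval of 0.797 to 1.07 that included 1. Log2 fold changes were 0.82 ± 0.40 (SE) in HCT116 and -0.43 ± 0.40 in SW620. In the annotation EMP3 overlaps CCDC114 on the opposite strand by 386 bases. The libraries keep no strand, so reads in that stretch cannot be told apart. CCDC114 had 40.0 and 40.7 normalized counts in HCT116 knockdown libraries, against 64.0 in the control, and 9.88 and 17.4 in SW620 knockdown libraries, against 15.6 in the control. Its part in the EMP3 values was not tested.

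PMP22 (chr17:15229777-15265357, minus strand), the myelin protein whose duplication causes the most common inherited neuropathy and which also sits at epithelial junctions, gave no common direction in HCT116. HCT116 knockdown libraries had 668 and 992 normalized counts of PMP22, against 675 in the control. In SW620 the knockdown libraries had 50.4 and 66.7 normalized counts, against 90.8 in the control. In HCT116 the control thus lay inside the range of the knockdown pair, and in SW620 it lay above both. Log2 fold changes were 0.27 ± 0.43 (SE) in HCT116 and -0.64 ± 0.43 in SW620. The SW620 ratio of library 2, 0.734, had a counting interval of 0.526 to 1.02.

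EMP2 (chr16:10528422-10580698, minus strand), which regulates integrin trafficking and is mutated in a childhood kidney disease, was the steadiest of the 7 by its fold changes. HCT116 knockdown libraries had 995 and 903 normalized counts of EMP2, against 1032 in the control. SW620 knockdown libraries had 1197 and 1323, against 1299 in the control. Both HCT116 knockdown values were below the control, and the SW620 control lay within the pair. Log2 fold changes were -0.12 ± 0.26 (SE) in HCT116 and -0.05 ± 0.26 in SW620.

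TM4SF1 (chr3:149369022-149377865, minus strand) was abundant in SW620 and close to absent in HCT116. In SW620 it had 2903 and 1863 normalized counts in the knockdown libraries, against 3375 in the control. Both knockdown values lay below the control, at 86.0% and 55.2% of it, a log2 fold change of -0.54 ± 0.48 (SE). In HCT116 it had 7 and 7 reads in the knockdown libraries, against 1 read in the control. Knockdown over control was 6.78 over both HCT116 knockdown libraries, with an exact 95% counting interval of 1.03 to 287, so the size of this ratio is nearly undetermined. An antisense transcript, TM4SF1-AS1, overlaps the gene by 88 bases. It had 11.9 and 11.3 normalized counts in SW620 knockdown libraries, against 22.5 in the control, and 0 reads in all HCT116 libraries, which allows up to 3 in each.

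TM4SF18 (chr3:149318498-149334414, minus strand), a little studied family member, was a low gene in every library. In HCT116 it had 22 and 17 reads in the knockdown libraries, against 1 read in the control, or 20.0 and 18.2 normalized counts against 1.02. Both knockdown libraries stood clear of the control, and the ratio over both was 18.9 with a counting interval of 3.20 to 765. Its log2 fold change was 3.32 ± 0.74 (SE), a value that changes with the pseudocount. In SW620 it had 1 and 0 reads in the knockdown libraries, against 4 in the control, with a ratio of 0.129 and an interval of 0.00262 to 1.30 that includes 1. The annotation places an antisense gene, AC093001.1, over 15156 bases of TM4SF18. No row of the tables carries that name, and without strand its reads could be counted as TM4SF18.

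TM4SF4 (chr3:149473974-149503281, plus strand), known from liver and intestine and regulated there by cell density, was seen only in SW620 beyond a single read. The SW620 knockdown libraries had 12 and 36 reads, against 5 in the control, or 11.9 and 36.9 normalized counts against 4.88. Both knockdown values stood above the control, at 2.43-fold and 7.56-fold, with counting intervals of 0.797 to 8.80 for library 1 and 2.96 to 24.7 for library 2. The log2 fold change was 1.91 ± 0.87 (SE). HCT116 had 0 and 0 reads in the knockdown libraries, against 1 in the control. A count of 0 allows up to 3 reads, so no fold is given for TM4SF4 in HCT116.

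**Figure D2:**
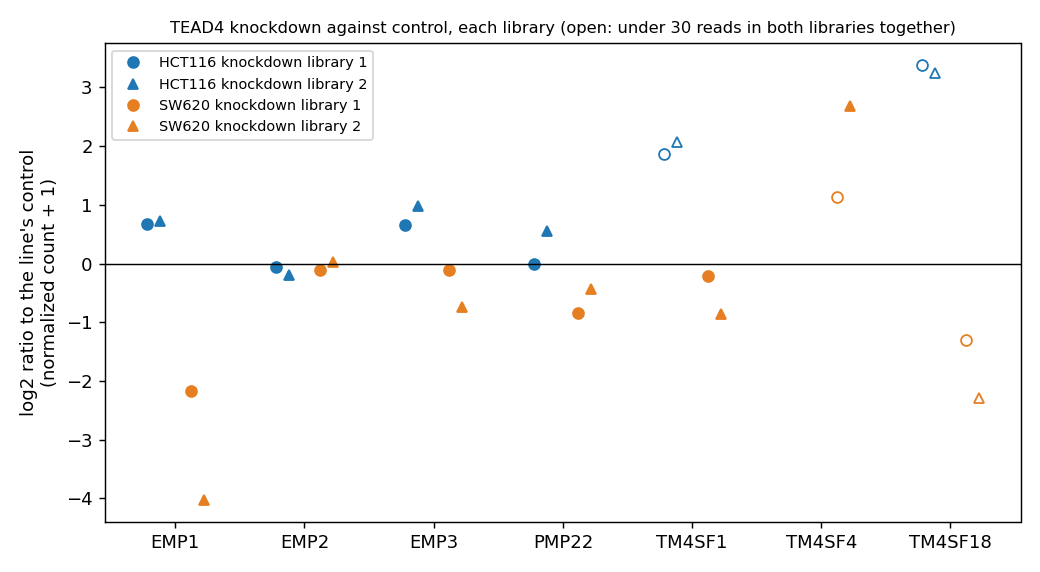
Log2 ratio of each knockdown library to the control of its line, on log2(normalized count + 1), for the 7 genes in HCT116 (blue) and SW620 (orange); open symbols mark ratios from few reads, and TM4SF4 in HCT116 is not drawn. EMP1 lies at 0.67 and 0.73 in HCT116 and at -2.16 and -4.03 in SW620, and EMP2 lies near 0 in both lines.

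Counted together, 4 genes (EMP1, EMP3, TM4SF1 and TM4SF18) were above the control in both HCT116 knockdown libraries and below it in both SW620 knockdown libraries. This pattern was found in 6.71% of all 18743 genes tested, and the reverse pattern, formally that of TM4SF4, in 7.06%. Of all genes tested, 29.7% were above the control in both HCT116 knockdown libraries, against these 4 of the 7, and 29.9% were below it in both SW620 knockdown libraries, against 5 of the 7, the same 4 and PMP22. In the other directions the shares were 31.4% below in HCT116 (EMP2 and, by 1 read, TM4SF4) and 31.1% above in SW620 (TM4SF4). Since the genes were chosen with these values known, nothing is read from that count. Averaging 10 normalized counts or more in each line, 4 genes (EMP1, EMP2, EMP3 and PMP22) remained of the 7, and among 12804 such genes overall 7.67% had the pattern, held by EMP1 and EMP3, and 5.83% its reverse, held by 0 of the 4. A 2-fold difference in both libraries was reached in HCT116 upwards by TM4SF1 and TM4SF18 (2.7% of all genes), and in SW620 downwards by EMP1 and TM4SF18 (2.34%) and upwards by TM4SF4 (1.97%). TM4SF4 also passed 2-fold downwards in HCT116 by formula (5.77% of all genes did), on the strength of 1 control read. In HCT116 the largest differences of the set were thus in genes with few reads, and in SW620 the largest was in EMP1.

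**Figure D3:**
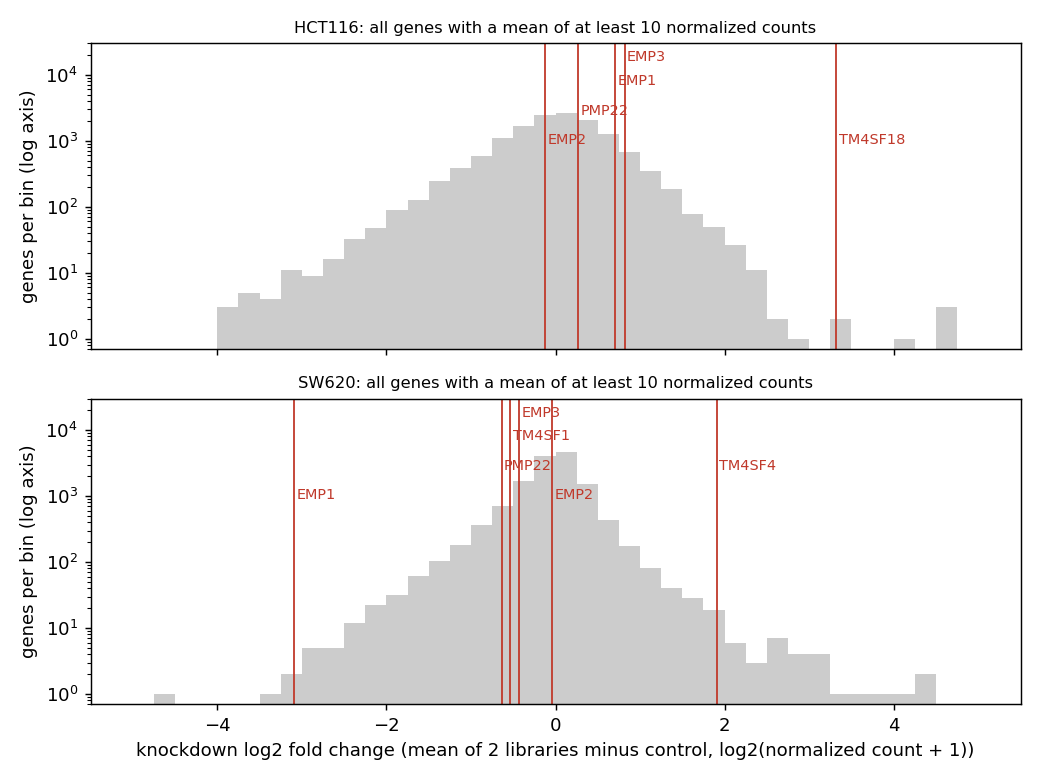
Number of genes (log axis) by knockdown log2 fold change, for all genes that averaged 10 normalized counts or more in HCT116 (upper panel, 14218 genes) and SW620 (lower panel, 14211 genes), with vertical lines at the genes described here that reach that mean. EMP1 lies in the far lower tail in SW620 at -3.10 and EMP2 near the centre of both panels; TM4SF18 in HCT116 and TM4SF4 in SW620 reach that mean only through their knockdown libraries, so their places at 3.32 and 1.91 follow from that requirement.

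TM4SF18, TM4SF1 and TM4SF4 lie side by side on chromosome 3, within 184.8 kb, with WWTR1, the gene of the TEAD coactivator TAZ, as the next gene of the tables beyond TM4SF4. WWTR1 had 3208 and 1868 normalized counts in HCT116 knockdown libraries, against 1627 in the control. In SW620 it had 361 and 211 normalized counts in the knockdown libraries, against 634 in the control. Its knockdown values were thus above the control in HCT116 and below it in SW620, the directions also seen for TM4SF1 and TM4SF18, with log2 ratios of 0.98 and 0.20 in HCT116 and -0.81 and -1.58 in SW620. HPS3, a gene of organelle biogenesis on the other side of the cluster, stood below its control in both lines, with 421 and 351 normalized counts in HCT116 knockdown libraries against 441 in the control, and 851 and 851 in SW620 knockdown libraries against 938 in the control. TM4SF4 lies between TM4SF1 and WWTR1 and had the other direction in SW620. Of 19 genes annotated within 200 kb of the cluster, 8 stood in the tables, these neighbours were looked up after the values of the TM4SF genes were known, and whether position and response are related was not tested.

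**Figure D4:**
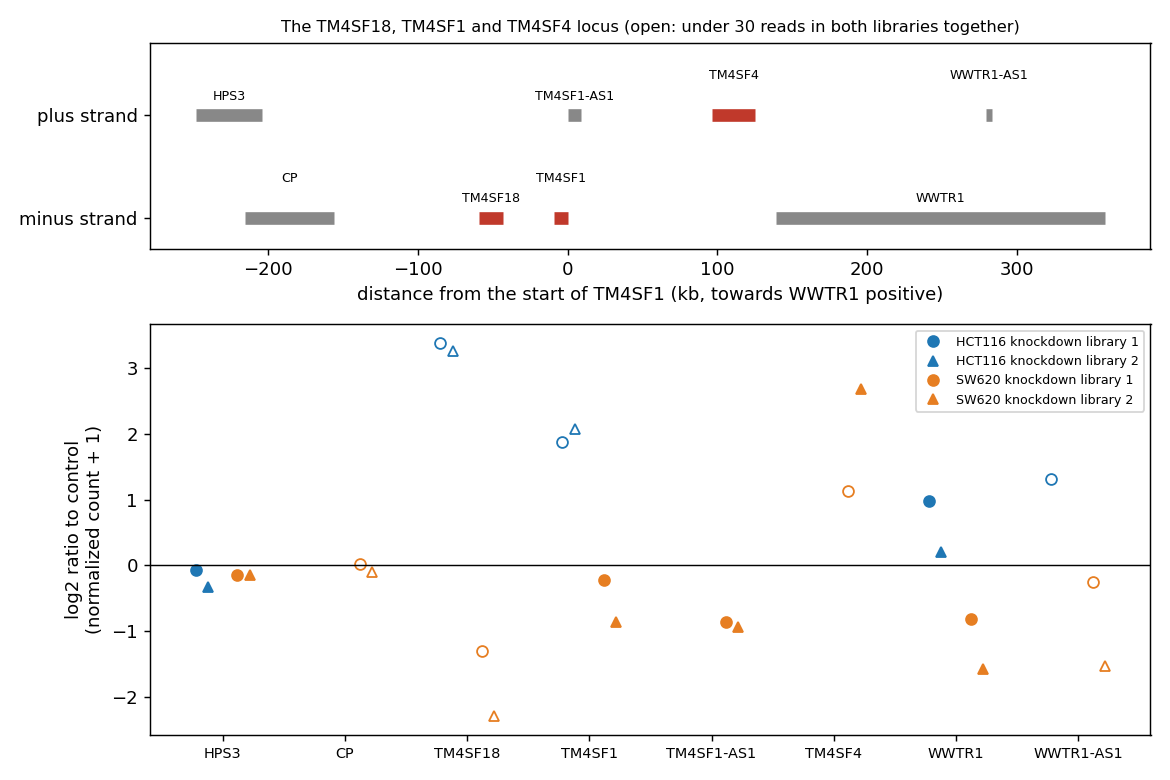
Upper panel: genes around TM4SF1 by distance from its start (kb) and strand, with the TM4SF genes in red; lower panel: log2 ratio of each knockdown library to its control, on log2(normalized count + 1), with HCT116 in blue and SW620 in orange and open symbols for few reads. WWTR1 and TM4SF1 lie above 0 in HCT116 and below 0 in SW620, with TM4SF1 in HCT116 resting on 7 and 7 reads against 1. TM4SF4 lies above 0 in SW620. HPS3 lies below 0, at -0.07 and -0.33 in HCT116 and at -0.14 in both SW620 libraries, and WWTR1 in HCT116 lies at 0.98 and 0.20.

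Levels in HCT116 and SW620 differed for most of these genes. This contrast was not the one used in the choice, but it shares its knockdown libraries, so the values known at the choice enter it. Levels were set on one scale as log2(CPM + 1), where CPM is reads scaled to a common library size with TMM factors over all 6 libraries, and HCT116 minus SW620 was tested in limma with line and knockdown as terms. Of the 7 genes 5 passed, EMP1, EMP3 and PMP22 being higher and TM4SF1 and TM4SF4 lower in HCT116. Of all 18743 genes tested 47.7% passed, with 24.1% higher and 23.6% lower in HCT116, so a line difference was common. TM4SF4 would not have passed the filter at its HCT116 level, so its call adds nothing to that count. The limma p-values measure the spread between libraries of 1 line each, not between tumours.

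TM4SF1 had the largest difference between the lines among the 7 genes. It had 0.414, 0.470 and 0.0656 CPM in HCT116 (the knockdown libraries, then the control), against 155.5, 100.04 and 181 CPM in SW620. The log2 difference was -6.77 ± 0.31 (SE, limma adjusted p = 1.88e-05), lower in HCT116 in every library. By reads, HCT116 had 15 and SW620 had 8211 in all, a depth-corrected ratio of SW620 over HCT116 of 459 (counting interval 278 to 820). TM4SF1 is also an endothelial gene. Of 5 endothelial markers, summed levels were between 25.7 and 56.4 normalized counts in HCT116 libraries and between 16.4 and 46.9 in SW620 libraries. VWF was the highest of them in every library, with 17.8 and 12.3 in SW620 knockdown libraries and 36.1 in the SW620 control. In SW620 PECAM1 and CDH5 had 0 reads in all libraries, and TEK and KDR in knockdown library 1 alone.

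EMP1 and PMP22 were the genes much higher in HCT116. EMP1 had 207, 207 and 129 CPM in HCT116, against 7.73, 2.09 and 34.9 CPM in SW620, in the order of knockdown libraries and control. PMP22 had 43.4, 62.1 and 43.6 CPM in HCT116, against 2.70, 3.58 and 4.87 CPM in SW620. No SW620 library reached the lowest HCT116 library for either gene. The log2 difference was 4.17 ± 0.70 for EMP1 (SE, limma adjusted p = 0.00242) and 3.43 ± 0.28 for PMP22 (limma adjusted p = 1.06e-04). The EMP1 difference includes the SW620 knockdown values on which the gene was chosen: it was 5.33 in the 4 knockdown libraries alone, and the controls had 129 CPM in HCT116 against 34.9 CPM in SW620. PMP22 is a myelin gene, and Schwann cell markers, most of it MBP, summed to between 554 and 1051 normalized counts in HCT116 libraries and between 541 and 616 in SW620 libraries.

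EMP3 and TM4SF4 passed by less, and EMP2 and TM4SF18 did not pass. EMP3 had 40.3, 48.6 and 25.4 CPM in HCT116, against 19.0, 12.3 and 20.6 CPM in SW620. Its log2 difference was 1.08 ± 0.31 (SE, limma adjusted p = 0.0236). The EMP3 difference includes the knockdown values known when the gene was chosen. It was 1.47 in the 4 knockdown libraries alone, and the controls had 25.4 CPM in HCT116 against 20.6 CPM in SW620. TM4SF4 had 0, 0 and 0.0656 CPM in HCT116, against 0.635, 1.98 and 0.262 CPM in SW620. Its log2 difference was -0.84 ± 0.27 (limma adjusted p = 0.0344). At levels this low the 1 added to each CPM narrows a log2 difference, and that of TM4SF4 was -4.91 in edgeR and -5.21 in DESeq2. The EMP3 call was lost without any 1 of the 4 knockdown libraries (limma adjusted p from 0.0543 to 0.087), and the TM4SF4 call without either HCT116 knockdown library (limma adjusted p = 0.103 and 0.108). EMP2 had 64.6, 56.5 and 66.6 CPM in HCT116, against 64.1, 71.0 and 69.6 CPM in SW620, a log2 difference of -0.13 ± 0.16 (limma adjusted p = 0.539). The EMP2 ranges of the lines overlapped. TM4SF18 had 1.30, 1.14 and 0.0656 CPM in HCT116, against 0.0529, 0 and 0.209 CPM in SW620, a log2 difference of 0.68 ± 0.25 (limma adjusted p = 0.0599), and its HCT116 control lay within the SW620 range. In the 4 knockdown libraries alone TM4SF18 passed at 1.11 (limma adjusted p = 0.00717). Leaving out either control gave the same 1.11, since the line term then rests on those 4 libraries, so these are not separate results. The TM4SF18 difference includes the knockdown values known when the gene was chosen.

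**Figure D5:**
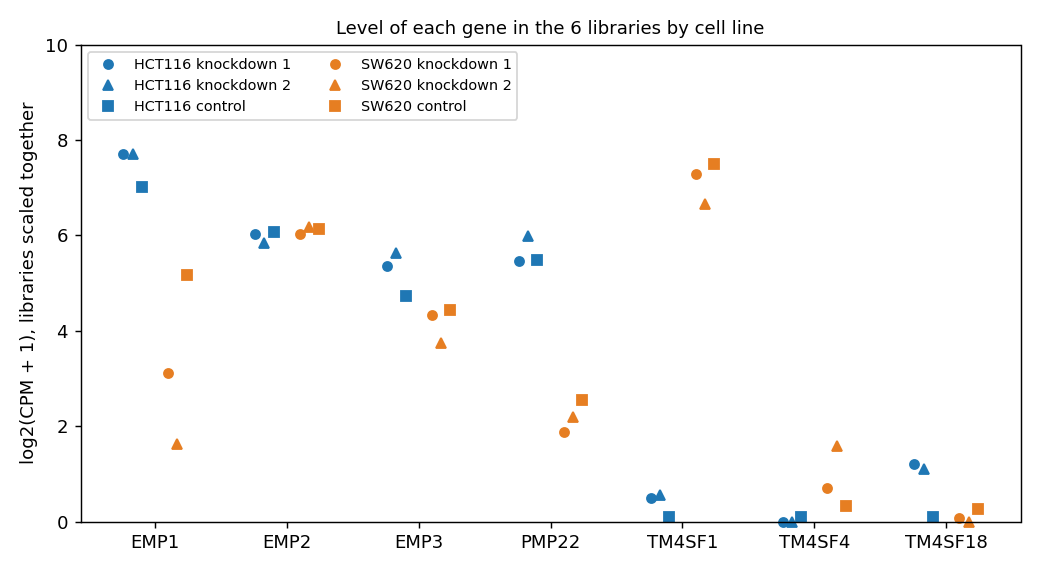
Level of each gene in log2(CPM + 1) in the 3 HCT116 libraries (blue) and the 3 SW620 libraries (orange), with circles and triangles for the knockdown libraries and squares for the controls. EMP1 and PMP22 are higher in every HCT116 library, TM4SF1 is at 100.04 CPM or more in every SW620 library and under 1 CPM in HCT116, and EMP2 overlaps.

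To compare the genes with each other, reads were divided by the longest coding transcript of each gene and the library total (RPKM). In HCT116, EMP3 was highest with 48.5 and 48.4 RPKM in knockdown libraries, against 28.0 in the control. EMP1 followed with 36.9 and 30.5 RPKM in knockdown libraries, against 21.1 in the control, and PMP22 with 24.6 and 29.1, against 22.6 in the control. The ranges of EMP1 and PMP22 overlapped over the 3 libraries, so their order is not settled, and the EMP1 and EMP3 ranges overlapped too, though EMP3 was higher in each library. EMP2 stood below them with 13.1 and 9.48 RPKM in knockdown libraries, against 12.4 in the control, and the TM4SF genes were under 1 RPKM in every HCT116 library. In SW620, TM4SF1 led with 49.99 and 34.3 RPKM in knockdown libraries, against 61.1 in the control. EMP3 had 21.7 and 15.1 RPKM in SW620 knockdown libraries, against 24.8 in the control, and EMP2 had 12.4 and 14.6, against 14.1 in the control. EMP1 had 1.31 and 0.378 RPKM in SW620 knockdown libraries, against 6.19 in the control, a range that took in PMP22 at 1.45 and 2.06 RPKM in knockdown libraries and 2.75 in the control. By the longest coding transcripts, the most abundant of the set per length was thus EMP3 in HCT116 and TM4SF1 in SW620. In HCT116 the order of EMP3 and EMP1 rests on the lengths used, 876 bases for EMP3 and 5921 bases for EMP1. By reads EMP1 was higher, with 3510 and 3085 in the knockdown libraries and 1968 in the control, against 681, 724 and 387 for EMP3. Which transcripts were expressed was not tested.

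The wider families and described partners of these proteins were read from 5 lists of 76 genes, of which 65 were tested. On knockdown limma called 0 of the 65 in HCT116 and in SW620 (0% of all genes as well), edgeR and DESeq2 also called 0, and 5 and 0 of the 65 had an unadjusted limma p under 0.05, against 5.53% of all genes in HCT116 and 1.45% in SW620. Median log2 fold changes on knockdown in HCT116 were 0.79 for the 2 other TM4SF genes, -0.64 for 5 PMP22 relatives, -0.42 for 16 claudins, -0.30 for 31 tetraspanins and 0.15 for 11 binding partners. In SW620 the same medians were 0.91, -0.01, 0.004, -0.06 and -0.12, beside a median near 0 over all genes in each line. The TM4SF medians rest on few reads and on 1 library: in HCT116 TM4SF20 had 0 reads and TM4SF5 had 1.82 and 2.14 normalized counts in knockdown libraries, against 0 in the control. Taken per library, a comparison added after the data were seen, the TM4SF median in SW620 was -0.13 in knockdown library 1 and 1.96 in library 2. Signs also differed between the knockdown libraries for the partners in HCT116 (-0.07 and 0.20) and for the PMP22 relatives (0.21 and -0.14) and claudins (-0.01 and 0.003) in SW620. Among partners, ITGB3, an integrin chain of platelets and vessels, had 23.7 and 21.4 normalized counts in HCT116 knockdown libraries, against 80.3 in the control, and 0.988 and 5.13 in SW620 knockdown libraries, against 1.95 in the control. ITGB4, an integrin chain of hemidesmosomes, had 9009 and 9453 normalized counts in HCT116 knockdown libraries, against 4000.4 in the control. In SW620 ITGB4 had 4367 and 1762 in the knockdown libraries, against 4155 in the control, so the control lay within the pair. CAV1, the scaffold protein of caveolae, had 2350.3 and 4121 normalized counts in HCT116 knockdown libraries, against 1833 in the control, and 867 and 159 in SW620 knockdown libraries, against 1281 in the control. CAV1 thus had the directions of EMP1 in both lines, and like EMP1 it was lowest in SW620 knockdown library 2. CD82, a tetraspanin that restrains metastasis, had 134 and 361 normalized counts in HCT116 knockdown libraries, against 956 in the control, and in SW620 it had 1311 and 389.7 in the knockdown libraries, against 926 in the control.

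Between the lines limma called 40 of the 65 listed genes, 29 higher and 11 lower in HCT116, against 47.7% of all genes tested, of which 24.1% were higher and 23.6% lower. By list these were 0 higher and 1 lower of 2 other TM4SF genes, 1 and 2 of 5 PMP22 relatives, 6 and 3 of 16 claudins, 13 and 5 of 31 tetraspanins, and 9 and 0 of 11 binding partners. TM4SF5, a liver and pancreas relative of TM4SF1, was lower in HCT116 like TM4SF1, by a log2 difference of -1.72 ± 0.18 (SE, limma adjusted p = 2.75e-04). TMEM47, a PMP22 relative at epithelial junctions, was lower in HCT116 with a log2 difference of -5.50 ± 0.37 (limma adjusted p = 4.87e-05), against the direction of EMP1 and PMP22. Claudin differences ran both ways, with CLDN7 higher in HCT116 by 5.91 ± 0.35 (limma adjusted p = 3.52e-05) and CLDN11 at -7.43 ± 0.27 (limma adjusted p = 7.30e-06). Of the partners CAV1 was higher in HCT116 by 2.41 ± 0.69 (limma adjusted p = 0.0232) and ITGB1, the integrin chain shared by most collagen and laminin receptors, by 1.71 ± 0.31 (limma adjusted p = 0.00332).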

How the data were processed

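RNA sequencing of 6 libraries was used, grouped by the titles in the labels into TEAD4 knockdown (2 per line) and pLKO control (1 per line). Trizol RNA and the TruSeq RNA kit were used, per the labels' protocols. Bowtie 0.12.2 and hg18 stand in the submitters' processing notes, with no role given, while the sources used here name no counter of reads and no gene models for them. The tables the authors deposited, 1 for each line, list 26364 features, and their signal columns hold normalized counts, that is reads divided by 1 size factor per library. Multiplying back gave whole reads for 100% of values (tolerance 1e-06). The deposited tables also hold the authors' log2 fold changes, which are shrunken, and a test score with its raw and adjusted p-value, per the file headers. Rows with date-like names (28, holding from 0.232% to 0.262% of reads) were left out.

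The 7 genes and all gene lists were chosen with earlier results of these data known. Knockdown values came from limma 3.58.1 in R 4.3.3 (eBayes with trend, 4 groups of line and treatment) on log2(normalized count + 1), for genes with a mean of at least 1 over the 6 libraries, with Benjamini-Hochberg adjustment at 0.05. A lone control is assumed there to vary like the knockdown pairs, and 1 spread per gene is shared by both lines. The line contrast used log2(CPM + 1) from the recovered reads with TMM factors, since size factors were set within each table. The design had named a count test for counts and limma for normalized values, so limma is the main test, with edgeR 4.0.16 and DESeq2 1.42.0 on recovered reads as alternatives. The fit over both lines and the line contrast were tested on simulated data. Exact 95% intervals of read ratios treat reads as independent and cover counting error only.

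Positions and transcript lengths come from the GENCODE annotation on GRCh38 by gene symbol, in place of the RefSeq lengths the design named, and promoters come from RefSeq on GRCh38.p14 (10 promoters of the 7 genes). No stretch of 36 bases was shared between the longest coding transcripts of the 7 genes. EMP2 shared such stretches with 2391 other genes of the tables, at most 46 of its 5158 stretches with a single gene, and EMP1 with 2. The annotation also places a processed pseudogene, AC108751.5, over 1336 bases of TM4SF4 on the same strand, and antisense genes over parts of EMP2 and PMP22. The part of these in the values was not tested. Besides all 7 genes, the genes named from each list come from a selection by size. It held up to 3 with the largest change in each line on knockdown, among those averaging 10 normalized counts or more there. It also held up to 3 past the threshold with the largest difference between the lines. Only some of the selection are described singly on knockdown: TM4SF5, TM4SF20, ITGB3, ITGB4, CAV1 and CD82, with no claudin or PMP22 relative. Other genes named are neighbours on chromosome 3, overlapping genes, and the genes nearest to a member by their log2 ratios.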

Additional observations from a re-analysis of the deposited data

Results flagged for a closer look

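In 4 genes every knockdown library moved one way in HCT116 and the other way in SW620, and the difference between the lines was not tested for any of them. For EMP1 the knockdown log2 fold changes were 0.70 (HCT116) and -3.10 (SW620), a difference (HCT116 minus SW620) of 3.80. For EMP3 the difference was 1.25, from 0.82 in HCT116 and -0.43 in SW620. TM4SF1 differed by 2.51, from 1.97 in HCT116 and -0.54 in SW620, with the HCT116 value resting on 7 and 7 reads in the knockdown libraries and 1 in the control. TM4SF18 differed by 5.12, from 3.32 in HCT116 and -1.80 in SW620, with 22 and 17 reads against 1 in HCT116 and 1 and 0 reads against 4 in SW620. Over all genes tested, 6.71% had both knockdown libraries above the control in HCT116 and below it in SW620.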

How the results depend on the processing

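The knockdown log2 fold change of EMP1 kept its sign in 14 of 14 alternatives in each line (0.66 to 0.73 in HCT116, -4.03 to -2.16 in SW620). Leaving out a library of the other line, changing the filter or fitting the line alone cannot change this value. The count thus includes alternatives that could not differ, and the EMP1 values were known when the gene was chosen. Of 275 knockdown values of the 7 genes under alternatives, with TM4SF4 in HCT116 left out, 26 moved. A move was a shift past the log2 SD of the knockdown pair for values of 1 line, and past the limma SE for values over both lines. For a value of 1 line, leaving out 1 knockdown library can never pass that SD, and some alternatives cannot change the value. Such alternatives could not count as moved, so the number of moves is no measure of stability. TM4SF18 in HCT116 was 3.69 with a pseudocount of 0.5, 2.002 with a pseudocount of 5, 4.08 in edgeR and 4.20 in DESeq2, against 3.32 as reported. A knockdown value could not be computed without the control of its line. On knockdown, limma without the filter called 545 genes in HCT116 (12 higher, 533 lower), and DESeq2 called 17 in HCT116, 7 in SW620 and 14 over both lines. Between the lines limma called 5358 genes from the 4 knockdown libraries alone and from 5345 to 10381 with 1 library left out, against 8941 as reported. EMP3 had a line difference of 0.86 on the deposited normalized counts (limma adjusted p = 0.0533) and from 0.80 to 1.47 with 1 library left out. TM4SF4 ranged from -1.14 to -0.51 with 1 library left out, and TM4SF18 from 0.53 to 1.11, with 1.11 from the 4 knockdown libraries alone. The size of both line differences depends on the pseudocount of 1 CPM. With 0.1 CPM, in edgeR and in DESeq2, TM4SF4 was at -2.80, -4.91 and -5.21, and TM4SF18 at 1.98, 2.84 and 3.40. Counts of genes past 2-fold follow the threshold: at 1.5-fold, 4-fold, 2-fold with a pseudocount of 5 and 2-fold with a mean of at least 10, they were 1397, 50, 196 and 299 higher in HCT116, 2103, 177, 505 and 492 lower in HCT116, 827, 34, 53 and 119 higher in SW620, and 1255, 34, 182 and 241 lower in SW620. No value of the 7 genes was called and changed sign under the alternatives run. Apart from what the alternatives themselves construct, the cause of each change was not tested. No paired analysis was possible because the tables number the knockdown libraries 1 and 2, not by the letters of the labels, and each line has 1 control. Depth limits TM4SF4 and TM4SF18 in both lines and TM4SF1 in HCT116.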

Other observations

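For each gene with a mean of at least 10 normalized counts, the genes nearest to it by Euclidean distance between log2 ratios of the knockdown libraries to their controls were listed, as a description with no test. Over the 4 ratios of both lines, the genes nearest to EMP1 were SLCO1B3, a transporter of organic anions (distance 1.00), and DHRS3, a retinaldehyde reductase (1.01). DHRS3 had log2 ratios of -2.45 and -3.48 in SW620 and 0.61 and -0.07 in HCT116. These distances were larger than those for EMP3, nearest to NUDT4 (0.19) and the circadian factor NPAS2 (0.23), for PMP22, nearest to the hypoxia-inducible factor EPAS1 (0.28) and LAG3 (0.29), and for EMP2, nearest to STUB1 (0.09) and TP53BP1 (0.10). In SW620 alone, over 2 ratios, EMP1 was nearest to the long non-coding RNA CASC15 (0.37). TM4SF1 was nearest in SW620 to the cytokine gene LIF and TM4SF4 to TBX10, and TM4SF18 was nearest in HCT116 to NUDT19 (0.91). Shared controls enter all ratios of a line.

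TM4SF20, a relative of TM4SF1 in the same family, had 1.98 and 60.5 normalized counts in the SW620 knockdown libraries, against 1.95 in the control, and 0 reads in HCT116. The high value was in knockdown library 2 alone, the library that was also highest for TM4SF4 with 36.9 normalized counts and lowest for EMP1 with 39.0.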
